A study of Mus musculus with 3 samples.

Results

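The 33 genes described here encode the enzymes of the tricarboxylic acid (TCA) cycle, the itaconate-producing enzyme Acod1, and the proteins that bring pyruvate, glutamate and aspartate into the cycle or take citrate and malate out of it. They were chosen by name, from a list of gene symbols, and all 33 were found among the 55536 annotated genes of the gene tables. They were read in polyadenylated RNA of bone-marrow-derived macrophages, phagocytes grown from marrow precursors, from C57BL/6J mice. The cells had been given lipid A, the part of bacterial lipopolysaccharide that Toll-like receptor 4 senses, at 100 ng/ml for 12 h, then a washout of 12 h, then lipid A again at 100 ng/ml for 480 min. The treatment fields of the labels name lipoprotein A instead, and lipid A is used here after their written description. The libraries, numbered 1, 2 and 3 in the labels, form 1 group with 1 treatment, and no untreated or once-treated library was analysed here. The results are therefore levels, within-library ratios and how far the libraries spread, and no effect of lipid A. The labels carry 1 donor record and leave unsaid if each replicate was a different animal, so what separates them may be technical.

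The TCA cycle oxidises acetyl groups to carbon dioxide in the mitochondrial matrix. Citrate synthase joins acetyl-CoA to oxaloacetate, citrate is turned into isocitrate by way of cis-aconitate, and isocitrate dehydrogenase and 2-oxoglutarate dehydrogenase then release carbon dioxide. Succinyl-CoA ligase, succinate dehydrogenase, fumarase and malate dehydrogenase lead back to oxaloacetate. Macrophages that sense lipopolysaccharide are known to divert the cycle at the isocitrate and succinate steps: Acod1 takes cis-aconitate for itaconate, itaconate inhibits succinate dehydrogenase, and citrate leaves for fatty acid synthesis.

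Replicates 1, 2 and 3 held 24596382, 54016971 and 43127749 expected counts, which are read counts shared among the transcripts a read could come from and need not be whole. Levels below are in TPM, counts per transcript length scaled to 1 sum per library, as mean ± SD (n = 3) where no library is named. They come from the first of 2 deposited quantifications of the same reads. Replicate 2 stood apart. Mitochondrially encoded messenger RNA took 6.86% of its counts, against 1.06% of replicate 1 and 1.13% of replicate 3. Of the summed TPM, mitochondrially encoded genes took 2.72% in replicate 1, 4.10% in replicate 3 and 17.1% in replicate 2. More genes had over 20% of their level in transcripts of under 800 bases in replicate 2 than in the others, as described below. The median of that percent over 6271 genes did not set replicate 2 apart, at 2.57%, 2.18% and 2.14% in replicates 1, 2 and 3. The values of replicate 2 are therefore given beside the others, and results that turn on that library are given without it. The 8 macrophage markers checked lay between 68.2 and 10684 TPM. B cell, erythroid and fibroblast markers reached at most 0.33 TPM. Of the T cell markers Cd4 was read at 20.0, 113 and 33.6 TPM in replicates 1, 2 and 3, while Cd3e and Cd3g reached at most 0.26 TPM. The neutrophil list reached 6.91 TPM, for S100a8 in replicate 2, and the endothelial list 5.82 TPM, for Cdh5 in replicate 2, and their part in the results of that library was not tested. In bulk RNA, fewer cells of a type and less RNA per cell cannot be told apart.

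The module was expressed throughout. Of its 33 genes, 32 reached 1 TPM in every library, against 91.2% of 10350 detected protein-coding genes, a gene being detected when any library reached 1 TPM. At least 10 TPM in every library was reached by 29 genes (87.9%, against 51.2% of detected genes) and at least 50 TPM by 11 (33.3%, against 16.6%). At 100 TPM the shares were 9.09% and 8.60%, with Acod1, Mpc1 and Mdh2 the members that reached it in every library. The median of the mean levels was 47.2 TPM over the 33 genes, against 15.1 TPM over detected genes, and 49.1 TPM over the 33 genes without replicate 2. The low end was held by Pcx, Me1 and Suclg2, which averaged 0.51 ± 0.32, 3.02 ± 1.23 and 7.20 ± 3.81 TPM.

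**Figure D1:**
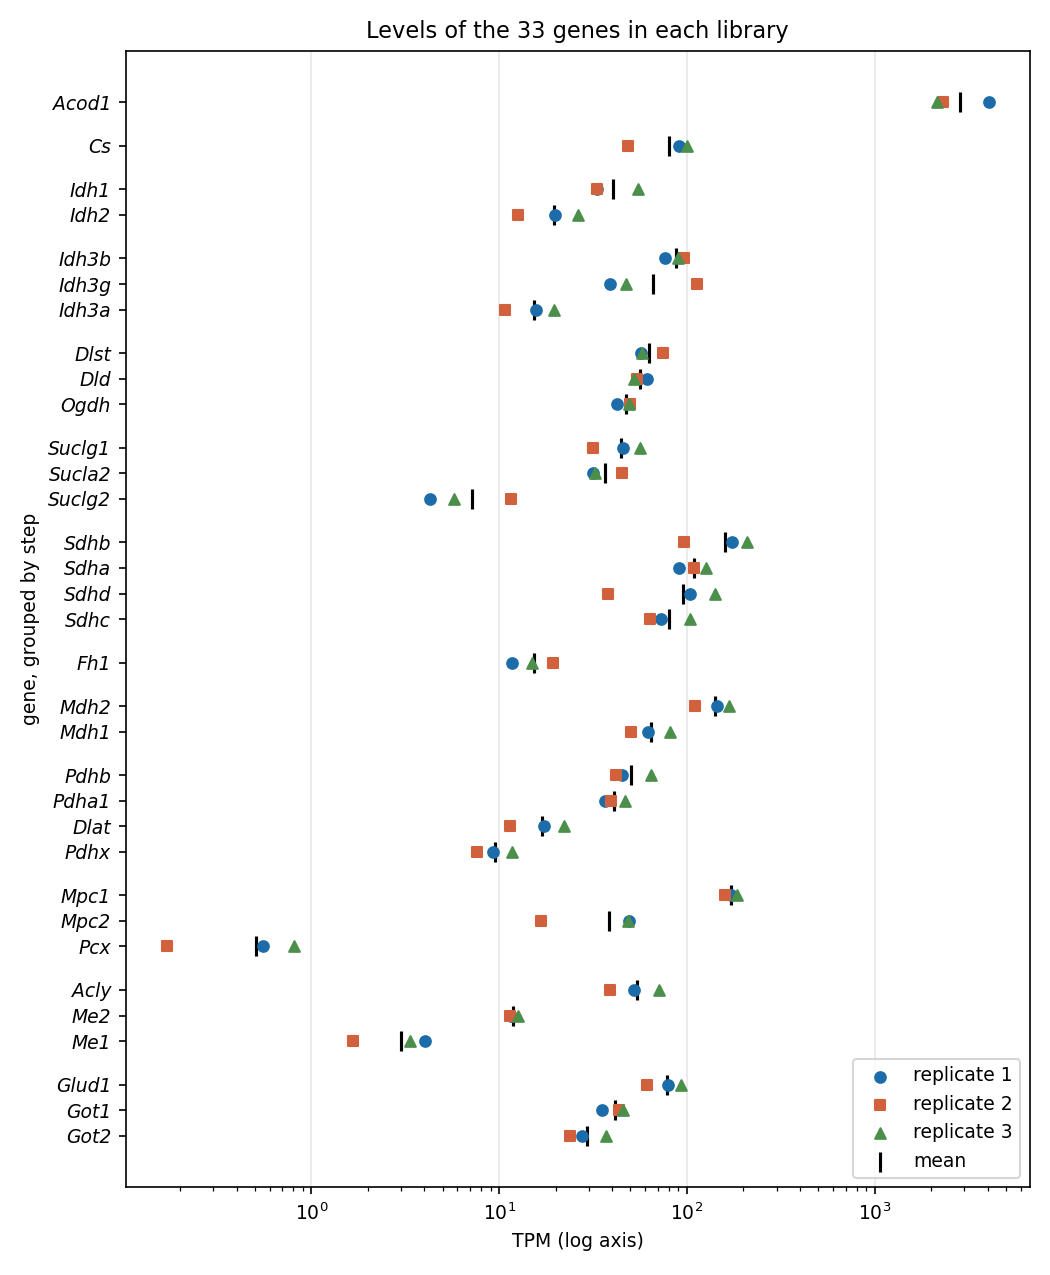
Level of each of the 33 genes in TPM (log axis) in replicates 1, 2 and 3 (points) with the mean of the 3 libraries (vertical tick), grouped by step. Acod1 lies at 2139 TPM or more in every library and Pcx below 1 TPM in every library, and replicate 2 is the lowest point for 20 of the 33 genes.

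Acod1 (ENSMUSG00000022126.6, chromosome 14, 103046977 to 103056573, plus strand, mm10) makes itaconate by removing a carboxyl group from cis-aconitate. It was read at 4041 TPM in replicate 1, 2317 TPM in replicate 2 and 2139 TPM in replicate 3, a mean of 2833 ± 1051 TPM. Replicate 1 was the highest by 1.89 times over the lowest, and Acod1 exceeded all other 32 genes in each library. It alone made up 70.2%, 60.3% and 50.7% of the summed TPM of the 33 genes in replicates 1, 2 and 3, and 0.661%, 0.428% and 0.364% of all expected counts. All of these reads fell to its single annotated transcript, Acod1-201, of 2623 bases.

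The promoter of Acod1 is printed beside those of Cs, which feeds the cycle at its entry, Sdhb, the highest by mean level of the enzymes of the cycle itself, and Pcx, the lowest gene of the module, because the Acod1 window held the fewest CG dinucleotides among the members. Each window runs from 250 bases before to 50 bases after a RefSeq transcription start (RefSeq, GRCm38.p6), 5′ to 3′ on the gene's strand. Capitals mark matches, on either strand, to any of 8 motifs searched: a TATA box (TATAAA), a GC box (GGGCGG), an ETS core (CCGGAA), an NRF1 site (GCGCA and GCGC with 1 base between them), a CCAAT box (CCAAT), a kappaB site (GGGA and TTCC with 2 bases between them), an interferon response element (GAAA and GAAA with 2 bases between them) and a C/EBP site (TTGC and CAA with 2 bases between them). The windows are chr14:103046762-103047061 for Acod1, chr10:128337477-128337776 for Cs, chr4:140961021-140961320 for Sdhb and chr19:4510222-4510521 for Pcx, and all of these lie on the plus strand.
Acod1: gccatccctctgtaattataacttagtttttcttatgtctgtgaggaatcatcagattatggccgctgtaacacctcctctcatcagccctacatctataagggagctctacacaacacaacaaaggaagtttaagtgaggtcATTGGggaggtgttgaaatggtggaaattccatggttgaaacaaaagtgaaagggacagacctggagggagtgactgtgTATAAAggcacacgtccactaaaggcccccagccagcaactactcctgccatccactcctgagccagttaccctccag
Cs: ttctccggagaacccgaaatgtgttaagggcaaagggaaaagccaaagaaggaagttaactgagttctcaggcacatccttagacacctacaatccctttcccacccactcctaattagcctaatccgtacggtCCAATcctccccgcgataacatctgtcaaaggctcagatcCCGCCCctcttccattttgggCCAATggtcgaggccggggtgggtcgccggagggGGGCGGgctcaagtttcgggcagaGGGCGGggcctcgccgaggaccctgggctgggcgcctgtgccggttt
Sdhb: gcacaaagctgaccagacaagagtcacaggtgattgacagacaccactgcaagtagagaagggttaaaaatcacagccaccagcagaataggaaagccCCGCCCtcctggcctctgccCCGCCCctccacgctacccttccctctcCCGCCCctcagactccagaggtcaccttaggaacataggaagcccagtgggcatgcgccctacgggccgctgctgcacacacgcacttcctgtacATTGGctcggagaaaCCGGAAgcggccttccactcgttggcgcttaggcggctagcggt
Pcx: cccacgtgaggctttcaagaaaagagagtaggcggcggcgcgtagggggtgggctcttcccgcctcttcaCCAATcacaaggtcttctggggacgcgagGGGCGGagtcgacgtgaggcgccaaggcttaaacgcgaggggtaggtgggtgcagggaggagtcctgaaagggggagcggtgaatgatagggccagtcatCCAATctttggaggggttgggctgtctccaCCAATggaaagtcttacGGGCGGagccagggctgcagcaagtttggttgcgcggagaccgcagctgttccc

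The Acod1 window held 2 CG dinucleotides, the fewest among the promoters of the 30 members that have an entry, and next came Me1 with 4. Over the 39 promoters of these 30 genes the median was 21 CG dinucleotides and a GC content of 61.7%, against 7 and 52.7% over all 32851 promoters of the table. The GC content of the Acod1 window was 47.0%, the lowest of the 39 together with that of Dld, whose window held 18 CG dinucleotides. It matched TATAAA 28 bases before the RefSeq start and a reversed CCAAT box 107 bases before it, and had no match to the GC box letters. The gene as annotated above begins upstream of that RefSeq start, at 103046977, so the TATAAA match lies within the annotated gene. Among the members, only Acod1 and Got2 matched TATAAA, in 5.13% of the 39 promoters against 13.6% of all promoters. The GC box letters stood in 66.7% of the members' promoters, from 21 genes, against 35.7% of all. CCAAT stood in 66.7% against 37.4%, the ETS core in 25.6% against 14.9% and the NRF1 letters in 10.3% against 4.60%. The kappaB letters and the C/EBP letters were in 0 of the members' windows, against 1.47% and 2.08% of all, and the interferon element was in 1 window, that of Suclg2, against 3.44% of all. A match is a description of letters and not a site in use.

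Acod1 lay far above the enzymes of the cycle in every library. The log2 ratio of Acod1 over Cs was 5.48, 5.57 and 4.41 in replicates 1, 2 and 3, a mean of 5.15 ± 0.64, or 35.5-fold. A ratio is called separated here when its sign was the same in all 3 libraries and its mean exceeded 3 SD. No p-value is attached, since an exact sign-flip test of 3 libraries cannot go below 0.25. By this rule Acod1 was separated from Cs, and also from Sdha (4.66 ± 0.73) and from Idh3a (7.50 ± 0.65, or 181-fold). In all of these ratios replicate 3 was the lowest library, as it was for Acod1 itself.

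Citrate synthase and the isocitrate dehydrogenases follow. Cs (ENSMUSG00000005683.8, chromosome 10, 128337734 to 128362479, plus strand), which makes citrate, was read at 90.5, 48.8 and 101 TPM in replicates 1, 2 and 3, lowest in replicate 2. Aco1, which is not among the 33 genes, was read at 14.9, 12.7 and 20.0 TPM, and it acts both on cytosolic citrate and as an iron-responsive RNA-binding protein. Of the 3 subunits of the NAD-dependent isocitrate dehydrogenase, the enzyme of the cycle proper, Idh3a (ENSMUSG00000032279.11, chromosome 9, 54586334 to 54604661, plus strand), the catalytic one, was the lowest in every library.

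Idh3a was read at 15.8, 10.7 and 19.6 TPM in replicates 1, 2 and 3. Idh3b, a partner subunit needed for full activity, was read at 76.5, 96.3 and 89.7 TPM, and the log2 ratio of Idh3b over Idh3a was 2.54 ± 0.53, which was separated. The regulatory subunit Idh3g (ENSMUSG00000002010.17, chromosome X, 73778963 to 73786897, minus strand) was read at 39.1, 113 and 47.2 TPM. Replicate 2 was thus 2.88 times the lowest library for Idh3g, and the ratio of Idh3g over Idh3a, 1.98 ± 1.21, was not separated, but became so without replicate 2 (1.29). In Idh3a itself only part of the level was assigned to coding transcripts. The retained-intron transcript Idh3a-203 held 52.5%, 32.1% and 31.7% of the gene in replicates 1, 2 and 3, against 36.7%, 40.1% and 55.6% in the coding Idh3a-205. The second quantification put 39.7%, 24.8% and 3.15% in Idh3a-203 and 38.6%, 41.2% and 65.8% in Idh3a-204, a transcript annotated as subject to nonsense-mediated decay. How Idh3a divides among its transcripts therefore differed between quantifications, while its summed level did not pass the test of that difference.

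The NADP-dependent isocitrate dehydrogenases lay between Idh3a and Idh3b in every library. Idh1, the cytosolic enzyme, which makes NADPH, was read at 33.03, 33.08 and 54.9 TPM in replicates 1, 2 and 3. Idh2, its mitochondrial relative, was read at 19.9, 12.7 and 26.2 TPM. The log2 ratio of Idh1 over Idh2 was 1.06 ± 0.33 and that of Idh1 over Idh3a 1.39 ± 0.29, both separated, and the call of Idh1 over Idh2 did not hold without replicate 3 (1.05). Idh2 over Idh3a was small but even, at 0.34, 0.24 and 0.42 in the 3 libraries, a mean of 0.33 ± 0.09. It was separated in TPM, but not in the second quantification (0.26), not without replicate 1 (0.33), and in library-scaled counts with no length correction (CPM), its sign turned to -0.01.

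The 2-oxoglutarate dehydrogenase complex, which makes succinyl-CoA, had subunits whose mean levels lay between 47.2 and 62.9 TPM. Ogdh, which removes the carboxyl group, was read at 42.6, 50 and 48.9 TPM in replicates 1, 2 and 3. Dlst, the succinyl-transferring core, was read at 56.8, 74.5 and 57.5 TPM, and Dld, the subunit that regenerates the lipoyl group and is shared with pyruvate dehydrogenase, at 61.5, 54.0 and 52.4 TPM. Ogdh and Dld each varied by less than 1.18 times between libraries. With mitochondrially encoded genes left out of the TPM, they stood at 51.7 ± 8.27 and 61.0 ± 5.60 TPM, so Ogdh then spread more widely. Neither Ogdh over Dlst (-0.41 ± 0.17) nor Dld over Dlst (-0.16 ± 0.29) was separated over the 3 libraries. Ogdh over Dlst was separated without replicate 3 (-0.49). Both signs turned in CPM, to 0.55 and 0.05, and that of Dld over Dlst also with transcripts of 800 bases or more alone (0.24).

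Succinyl-CoA ligase, which makes succinate and a nucleoside triphosphate, joins a common alpha subunit to an ATP- or a GTP-forming beta subunit. The common subunit Suclg1 was read at 45.5, 31.6 and 56.5 TPM in replicates 1, 2 and 3, lowest in replicate 2. The ATP-type beta subunit Sucla2 was read at 31.8, 45.1 and 32.4 TPM, highest in replicate 2, and the GTP-type Suclg2 at 4.30, 11.5 and 5.78 TPM, also highest there. The log2 ratio of Sucla2 over Suclg2 was 2.43 ± 0.45, or 5.38-fold, and was separated. That of Suclg1 over Sucla2 was 0.27 ± 0.69 over the 3 libraries, negative in replicate 2 alone, and became separated without it (0.66).

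Succinate dehydrogenase, which oxidises succinate and is also complex II of the respiratory chain, was the highest of the multi-subunit enzymes of the cycle. The iron-sulfur subunit Sdhb (ENSMUSG00000009863.14, chromosome 4, 140961203 to 140979193, plus strand) was read at 175, 96.3 and 209 TPM in replicates 1, 2 and 3. The flavin-bearing catalytic subunit Sdha was read at 90.3, 109 and 127 TPM. The membrane anchors were read at 73.0, 63.2 and 104 TPM for Sdhc and at 104, 38.2 and 142 TPM for Sdhd (ENSMUSG00000000171.5, chromosome 9, 50596357 to 50603812, minus strand). Sdhb and Sdhd were thus lowest in replicate 2, Sdhd by 3.70 times below replicate 3, whereas Sdha was not. In replicates 1 and 3 the log2 ratio of Sdhd over Sdha was 0.21 and 0.16, and in replicate 2 it was -1.51. The 3-library mean, -0.38 ± 0.98, turned to 0.18 without replicate 2. No ratio of Sdhb, Sdhc or Sdhd over Sdha was separated over the 3 libraries, and all of these were without replicate 2, at 0.83 for Sdhb and -0.29 for Sdhc. Sdhc over Sdha was also separated with transcripts of 800 bases or more alone (-0.45). The sign for Sdhb turned to -0.96 in CPM.

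Fumarase and malate dehydrogenase, the last steps, lay at opposite ends. Fh1 (ENSMUSG00000026526.14, chromosome 1, 175600374 to 175625635, minus strand), which hydrates fumarate to malate, was read at 11.8, 19.5 and 15.1 TPM in replicates 1, 2 and 3. Mdh2 (ENSMUSG00000019179.10, chromosome 5, 135778480 to 135790398, plus strand), the mitochondrial malate dehydrogenase, was read at 144, 110.3 and 167 TPM. Fh1 over Sdha had a log2 ratio of -2.82 ± 0.31, which was separated. The cytosolic malate dehydrogenase Mdh1, a part of the malate-aspartate shuttle, was read at 61.8, 50.1 and 81.2 TPM. Mdh1 over Mdh2 was the ratio with the smallest SD of the 25 examined, at -1.22, -1.14 and -1.04 in the 3 libraries, a mean of -1.13 ± 0.09.

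The steps were then set against each other within each library, each as the geometric mean TPM of its subunits plus 0.1, with attention to the steps around isocitrate and succinate. The NAD-dependent isocitrate dehydrogenase stood at 36.2, 49.0 and 43.7 TPM in replicates 1, 2 and 3. Its log2 ratio over citrate synthase was -1.32, 0.00 and -1.21, a mean of -0.84 ± 0.73. It was not separated over the 3 libraries, and was without replicate 2, at -1.26. It also rested on which subunit stood for the step. With the lowest subunit, Idh3a, it was -2.35 and separated, and with the highest subunit it turned to 0.26. The ratio of 2-oxoglutarate dehydrogenase over the isocitrate step was 0.36 ± 0.16, not separated, and was separated without replicate 1 (0.27).

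Around succinate the steps differed more. Succinate dehydrogenase stood at 105, 71.1 and 141 TPM in replicates 1, 2 and 3, against 18.6, 25.5 and 22.1 TPM for succinyl-CoA ligase. The log2 ratio was 2.50, 1.48 and 2.67, a mean of 2.21 ± 0.64, or 4.64-fold, and was separated, though not without replicate 1 (2.07) or without replicate 3 (1.99). Fumarase over succinate dehydrogenase was -3.14, -1.86 and -3.22, a mean of -2.74 ± 0.76, again separated but not without replicate 1 (-2.54) or replicate 3 (-2.50). In both ratios, with all transcripts counted, replicate 2 was the one nearest to 0, and the sign was the same in every library. For fumarase that place of replicate 2 depends on short transcripts, which held 76.8% of Fh1 there. With transcripts of 800 bases or more alone, Fh1 was read at 8.14, 4.53 and 12.5 TPM in replicates 1, 2 and 3, lowest in replicate 2. Succinyl-CoA ligase over 2-oxoglutarate dehydrogenase was -1.33 ± 0.17 and malate dehydrogenase over fumarase was 3.19 ± 0.60, or 9.11-fold, and both remained separated when any library was left out. The ligase step, however, averages its alternative beta subunits Sucla2 and Suclg2 with Suclg1. With the highest subunit of each step, ligase over 2-oxoglutarate dehydrogenase was -0.39 and not separated. Succinate dehydrogenase over the isocitrate step was 1.25 ± 0.62, with the same sign in every library, and was separated without replicate 2 (1.61).

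**Figure D2:**
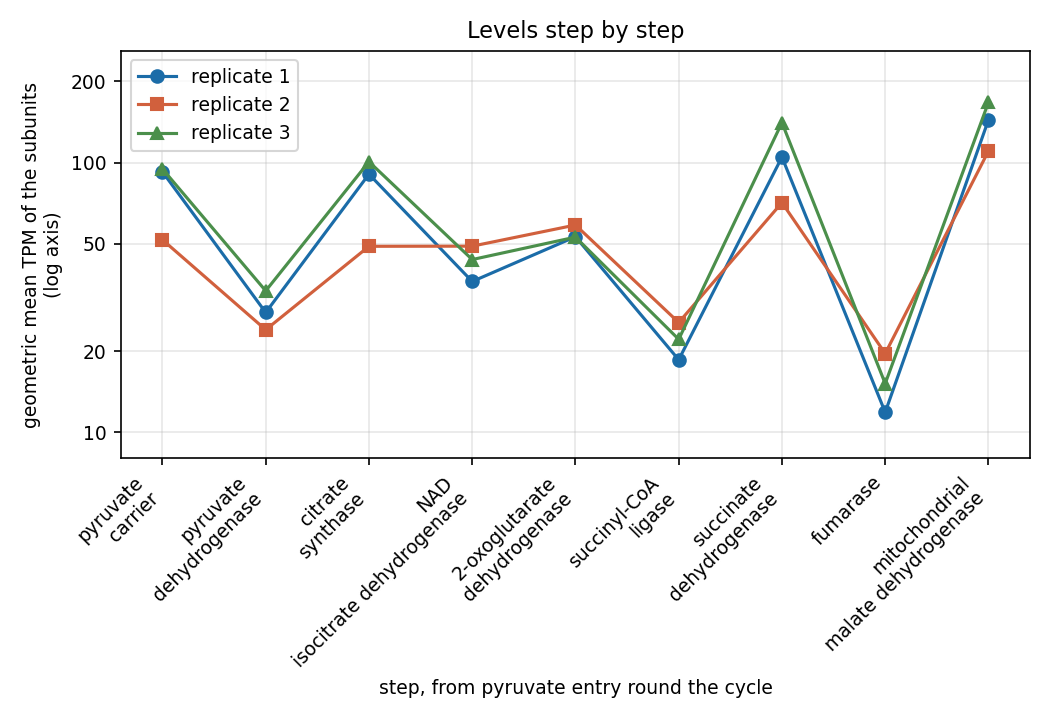
Geometric mean TPM (log axis) of the subunits of each step, from pyruvate entry round the cycle, with 1 line per library (replicates 1, 2 and 3). Succinyl-CoA ligase and fumarase lie low and succinate dehydrogenase and mitochondrial malate dehydrogenase high in each library, and the replicate 2 line lies lowest against the others at the pyruvate carrier, citrate synthase and succinate dehydrogenase.

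Of 9 step ratios, 6 were separated, 3 with the first-named step higher and 3 with it lower, and 8 had 1 sign in all libraries. The remaining separated ratios concern pyruvate. Pyruvate enters the matrix through a carrier made of Mpc1 and Mpc2 and is turned into acetyl-CoA by the pyruvate dehydrogenase complex. The carrier stood at 92.4, 51.7 and 94.7 TPM, against 27.8, 24.0 and 33.4 TPM for pyruvate dehydrogenase, in replicates 1, 2 and 3, a log2 ratio of 1.45 ± 0.32. This ratio was not separated with transcripts of 800 bases or more alone (1.29) and its sign turned to -0.23 in CPM, so its sign depends on the length correction. Pyruvate dehydrogenase over citrate synthase was -1.44 ± 0.36, separated, and not so without replicate 3 (-1.37).

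Mpc1 (ENSMUSG00000023861.17, chromosome 17, 8282904 to 8297661, plus strand) was the second highest gene of the module, at 172, 159.9 and 184 TPM in replicates 1, 2 and 3, and one of the least variable. Its partner Mpc2 (ENSMUSG00000026568.6, chromosome 1, 165460637 to 165481214, plus strand) was read at 49.4, 16.6 and 48.7 TPM, lowest in replicate 2. Mpc1 over Mpc2 had log2 ratios of 1.80, 3.26 and 1.92, which made 2.32 ± 0.81, not separated, and 1.86 without replicate 2, which was. Within Mpc1, Mpc1-201 took 63.6% of replicate 2 and 0% of the other libraries in the first quantification, whereas the second put 98.4% of replicate 2 in Mpc1-208, so this split differed between quantifications although both transcripts code for protein.

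In the pyruvate dehydrogenase complex the decarboxylase subunits Pdha1 and Pdhb averaged 40.9 ± 5.36 and 50.4 ± 12.2 TPM. Pdha1 was read at 36.6, 39.3 and 46.9 TPM in replicates 1, 2 and 3, and Pdhb at 44.9, 42.0 and 64.4 TPM. Dlat, the acetyl-transferring core, was lower, at 17.3, 11.5 and 22.03 TPM, and Pdhx, which anchors Dld to the core, lower again, at 9.30, 7.58 and 11.8 TPM. Pdhb over Pdha1 was 0.28 ± 0.18 and not separated. It was separated without replicate 2 (0.38), and in CPM it was separated with the opposite sign (-0.74). Pdhx over Dlat was -0.79 ± 0.18 and separated, but not with transcripts of 800 bases or more alone (-0.44). Dlat had 31.1% and 39.5% of its level in the non-coding Dlat-202, of 770 bases, in replicates 1 and 3, and 0% there in replicate 2.

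The kinases that switch pyruvate dehydrogenase off were low but uneven. Pdk3 was read at 12.6, 9.99 and 11.7 TPM, Pdk1 at 5.96, 6.31 and 5.79 TPM and Pdk2 at 0.86, 3.04 and 1.90 TPM in replicates 1, 2 and 3. Pdk4, the kinase linked to fasting, had 0, 2 and 1 counts. Of the 7 kinases and phosphatases of the complex examined, 5 reached 1 TPM in every library. The other route of pyruvate, carboxylation to oxaloacetate by Pcx (ENSMUSG00000024892.17, chromosome 19, 4510472 to 4621752, plus strand), was close to absent, with 36, 28 and 64 counts or 0.55, 0.17 and 0.81 TPM. Pcx over Pdha1 was -6.23 ± 0.83 and separated. In the second quantification the ratio was -5.18 and not separated, since Pcx was read there at 1.77, 0.177 and 1.502 TPM. At so few counts its division among transcripts was not stable, with a different leading transcript in each library of the first quantification. Pcx-204 led with 54.6% in replicate 1, Pcx-202 with 69.6% in replicate 2 and Pcx-201 with 64.0% in replicate 3, where Pcx-206 held the other 36.0%.

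The enzymes that carry citrate and malate out of the cycle differed widely. Acly, which splits cytosolic citrate into acetyl-CoA and oxaloacetate, was read at 52.3, 39.2 and 71.2 TPM in replicates 1, 2 and 3. Acly over Cs was -0.54 ± 0.24, not separated, and separated both without replicate 1 (-0.41) and without replicate 2 (-0.65), with the sign turned in CPM (0.06). The malic enzymes make pyruvate from malate. The cytosolic NADP-dependent Me1 was read at 4.05, 1.66 and 3.35 TPM and the mitochondrial Me2 at 11.5, 11.4 and 12.6 TPM. Me2 was the least variable of the 33 genes in TPM, with an SD of 5.32% of its mean. With mitochondrially encoded genes left out of the TPM, Me2 stood at 12.9 ± 0.96 TPM and Mpc1 at 187 ± 8.71 TPM. Mpc1 then varied less for its level than Me2. Me1 over Me2 was -2.02 ± 0.62 and separated, but not in the second quantification (-2.02), in CPM (-1.60), without replicate 3 (-2.10), or with transcripts of 800 bases or more alone (-1.90), where the SD was larger.

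Glutamate and aspartate reach the cycle through Glud1 and the transaminases. Glud1, which turns glutamate into 2-oxoglutarate, was read at 79.3, 61.4 and 93.4 TPM in replicates 1, 2 and 3. The cytosolic transaminase Got1 was read at 35.3, 43.5 and 45.7 TPM and the mitochondrial Got2 at 27.6, 23.8 and 37.2 TPM. Glud1 over Got2 was even, at 1.52, 1.36 and 1.33, a mean of 1.40 ± 0.10, or 2.64-fold, and was separated. Got1 over Got2 was 0.51 ± 0.32, not separated over the 3 libraries but separated without replicate 2 (0.32), with a sign that turned in CPM (-0.23) and with transcripts of 800 bases or more alone (-0.14).

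**Figure D3:**
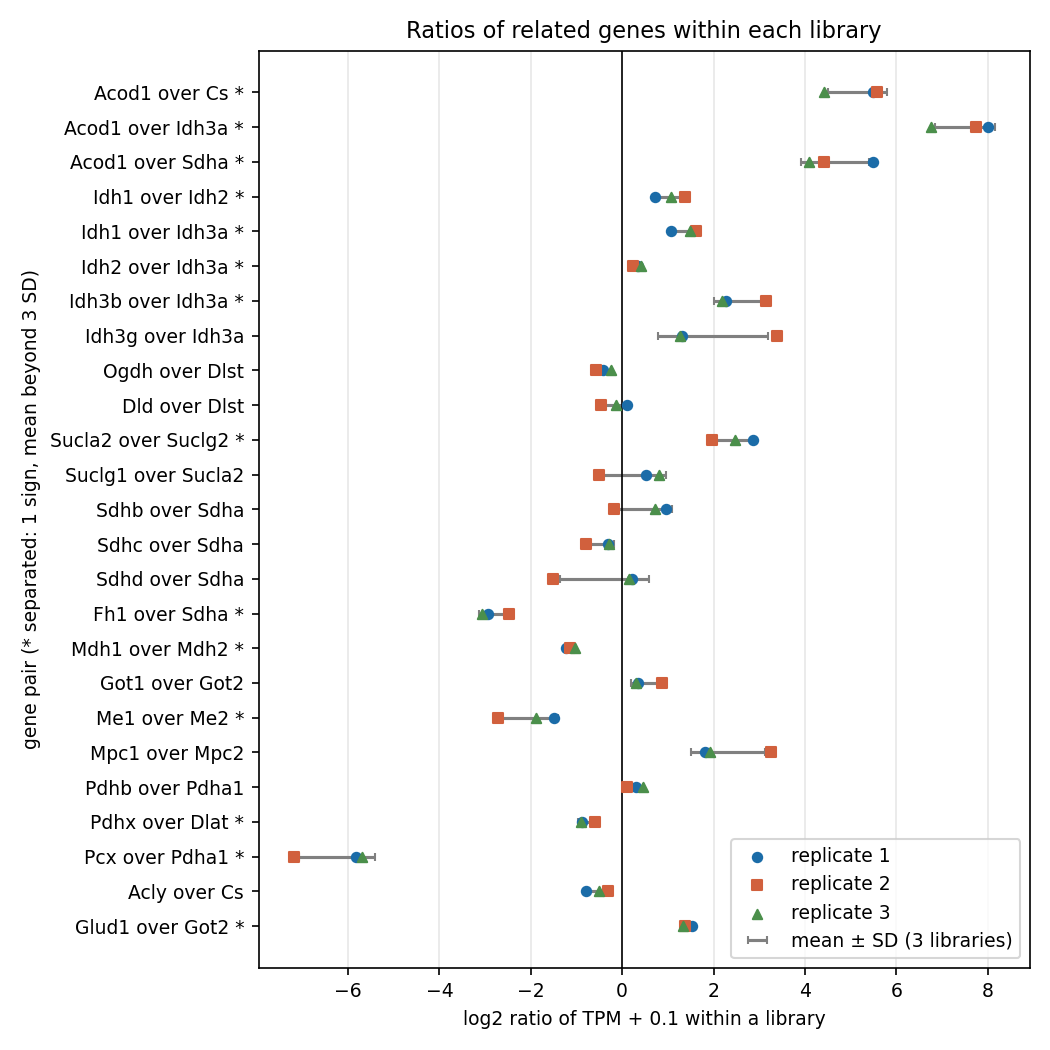
Log2 ratio of TPM + 0.1 of the first-named over the second-named gene within each library (points: replicates 1, 2 and 3; bars: mean ± SD) for 25 pairs, with an asterisk for the 14 separated pairs. Acod1 lies to the right of 4 against each gene it was paired with, Pcx over Pdha1 lies furthest to the left, and in Idh3g over Idh3a and Sdhd over Sdha replicate 2 lies away from the other libraries.

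Of the 25 gene ratios examined, 14 were separated, 9 with the first-named gene higher and 5 with it lower, and 21 had 1 sign in all libraries. Without replicate 2 the number was 23, without replicate 1 it was 14 and without replicate 3 it was 13. The direction of the 9 and 5 separated ratios held in each of these, and with 2 libraries left the SD is less well known.

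Beyond the 33 genes, 58 others of the same pathways were examined, and 38 of these (65.5%) reached 1 TPM in every library. The list was chosen with earlier results of these data known. Ldha, which turns pyruvate into lactate, was the highest, at 288, 142 and 285 TPM in replicates 1, 2 and 3. The mitochondrial carriers were all present, 6 of 6 at 1 TPM or more. They were led by the glutamate carrier Slc25a22 (106 ± 53.1 TPM), the dicarboxylate carrier Slc25a10 (77.4 ± 26.4 TPM), the citrate carrier Slc25a1 (68.2 ± 10.5 TPM) and the 2-oxoglutarate carrier Slc25a11 (63.8 ± 24.7 TPM). The succinate dehydrogenase assembly factor Sdhaf2, which helps attach the flavin to Sdha, stood at 54.0 ± 6.21 TPM.

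Of 10 genes that handle itaconate or succinate, 4 reached 1 TPM in every library and 6 stayed under it in every library. Oxct1, which moves coenzyme A from succinyl-CoA to ketone bodies, stood at 76.5 ± 22.9 TPM, and Slc13a3, a plasma membrane carrier of dicarboxylates, at 72.7 ± 21.7 TPM. Clybl, an enzyme of the pathway that breaks itaconate down, was read at 1.45, 3.57 and 3.84 TPM in replicates 1, 2 and 3. Sucnr1, the cell surface receptor for succinate, had 1, 1 and 0 counts. Acsm5, the 2-oxoglutarate receptor Oxgr1, the gluconeogenic enzyme Pck1 and the mitochondrial NADP-dependent malic enzyme Me3 had 0 counts in every library. A limit of 3 counts allows at most 0.112 TPM for Pck1 and 0.0715 TPM for Me3 in replicate 1, the shallowest library, and such limits cover counting error only.

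How much of each gene was read as its main transcript was examined next, because the length of the transcripts sets TPM. In 23 of the 33 genes a single transcript led in all libraries. Among members at a mean of 10 TPM or more this held for 21 of 29. The share over all 6271 genes at that level was 72.6%, so the members lay near the background. Of the 29 genes at a mean of 10 TPM or more, 7 had a leading transcript in replicate 2 that differed from the one shared by replicates 1 and 3. The same held for 20.8% of 6271 genes at that level, so such a switch was not particular to the module.

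**Figure D4:**
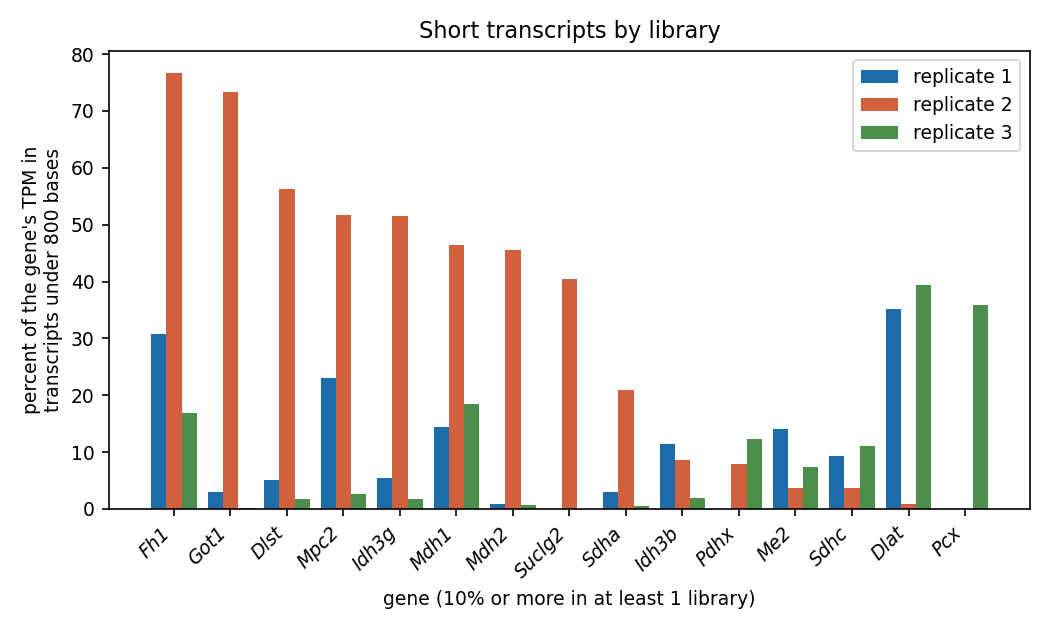
Percent of each gene's TPM in transcripts under 800 bases in replicates 1, 2 and 3 (bars), for the members with 10% or more in at least 1 library. Replicate 2 is the highest bar in most of these genes, with Fh1 and Got1 above 70%, whereas Dlat is low in replicate 2 and high in replicates 1 and 3.

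In several members transcripts under 800 bases took a larger share of the level in replicate 2. In Got1 the retained-intron transcript Got1-203, of 661 bases, held 72.7% of the gene in replicate 2, against 2.45% and 0% in replicates 1 and 3. In Dlst the retained-intron Dlst-213 held 55.0% in replicate 2, against 2.08% and 0.36%. In Idh3g the non-coding Idh3g-207, of 395 bases, held 51.0% in replicate 2 and 0% in the others, and the second quantification gave it 55.3%. Short transcripts also took 45.5% of Mdh2, 51.8% of Mpc2 and 40.4% of Suclg2 in replicate 2, and 46.5% of Mdh1 and 20.95% of Sdha, where the leading transcript was the same in all libraries. In Mdh2, Mpc2 and Suclg2 the main ones were the coding Mdh2-207, the non-coding Mpc2-203 and the coding Suclg2-205. Mdh2-207 and Suclg2-205 held 0.26% and 0% in replicate 3. In Mdh1 the coding Mdh1-202, of 549 bases, held 11.3%, 20.7% and 17.5% in replicates 1, 2 and 3, and the non-coding Mdh1-203, of 644 bases, 2.57%, 25.8% and 0.21%. In Mpc1 the switch to Mpc1-201 was one between longer transcripts, and short ones held 0.41% of replicate 2. In Fh1, where Fh1-205 led with 49.8%, they took 76.8% of replicate 2, and 30.8% and 16.9% of replicates 1 and 3. Over the 29 genes, 8 had more than 20% of their level in transcripts under 800 bases in replicate 2, and 3 and 1 in replicates 1 and 3. The shares over all 6271 genes were 29.2% in replicate 2 and 20.1% and 19.6% in the others.

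Longer transcripts also shared some genes among them. Sdhc had 46.6%, 85.7% and 46.1% in Sdhc-201 and 44.0%, 10.6% and 42.9% in Sdhc-202 in replicates 1, 2 and 3, and Sucla2 had 47.8%, 14.2% and 45.02% in Sucla2-203. All of these code for protein and replicate 2 again differed from the others. In Mdh2 the transcript Mdh2-203, annotated as subject to nonsense-mediated decay, held 26.5%, 13.1% and 22.7%. In Suclg2 the coding Suclg2-201 held 42.8%, 44.3% and 33.5%, and led in replicate 2, where Suclg2-204, which led in the other libraries, held 15.4%. Acly was divided among Acly-203 (53.0%, 38.1% and 48.6%), Acly-201 (23.2%, 30.1% and 29.2%) and Acly-207 (21.8%, 31.8% and 20.1%), all coding. Ogdh-202 held 19.2%, 17.7% and 18.1% of Ogdh, and this share varied little.

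Counting only transcripts of 800 bases or more, replicate 2 lost much of its height in these genes. Idh3g was then read at 54.6 TPM in replicate 2, Got1 at 11.6 TPM, Dlst at 32.5 TPM and Fh1 at 4.53 TPM. By this measure 8 of the 33 genes changed by more than 1.5 times in replicate 2, and 1 and 2 did in replicates 1 and 3. These changes follow from the shares of short transcripts given above and are not a second measure. In replicate 2, shares over 20% were found in 27.6% of the 29 genes and in 29.2% of all 6271 genes. Averaged over the libraries only Fh1 changed by more than 1.5 times, to 8.39 TPM, against 15.4 TPM with all transcripts. Levels were also recalculated with mitochondrially encoded genes left out of the TPM, as given under the processing below. Beyond these recalculated levels, the part that short transcripts and the mitochondrial share play in replicate 2 was not tested.

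Whether the libraries differed by more than the sampling of reads was tested gene by gene with a chi-square test on rounded counts, fitted over 11932 genes with Benjamini-Hochberg adjustment at 0.05. Of all genes 87.9% passed, and 31 of the 33 did, all but Dlst and Pdhx, so the share of the members is read as near the background. Acod1 had the largest chi-square value and Sdhd came next, and this value rises with the number of counts. Without replicate 2, 6695 of 12181 genes (55.0%) and 25 of the 33 passed, so the share of the members then lay above the background. That background was not matched for level. The members had a median level of 47.2 TPM, against 15.1 TPM over detected protein-coding genes, and the part of level in the higher share was not tested. Cs, Mpc1, Mpc2, Me2, Sucla2 and Pcx were no longer among those that passed. The spread beyond counting was then set against that of other genes at the same level by edgeR's quasi-likelihood fit, with a one-sided F test of each gene's residual variance against the trend. By that test 0 of 11932 genes (0%) passed at an adjusted p of 0.05, also with DESeq2 size factors, and 503 had an unadjusted p under 0.05, of which 0 were members. With 1 library left out, 7 to 20 genes passed, again with 0 members. Mpc2 was the nearest, with an F of 4.25 and an unadjusted p of 0.0916. Sdhd followed with an F of 3.94. Acod1 had an F of 0.83 and an unadjusted p of 0.494 in the same F test.

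**Figure D5:**
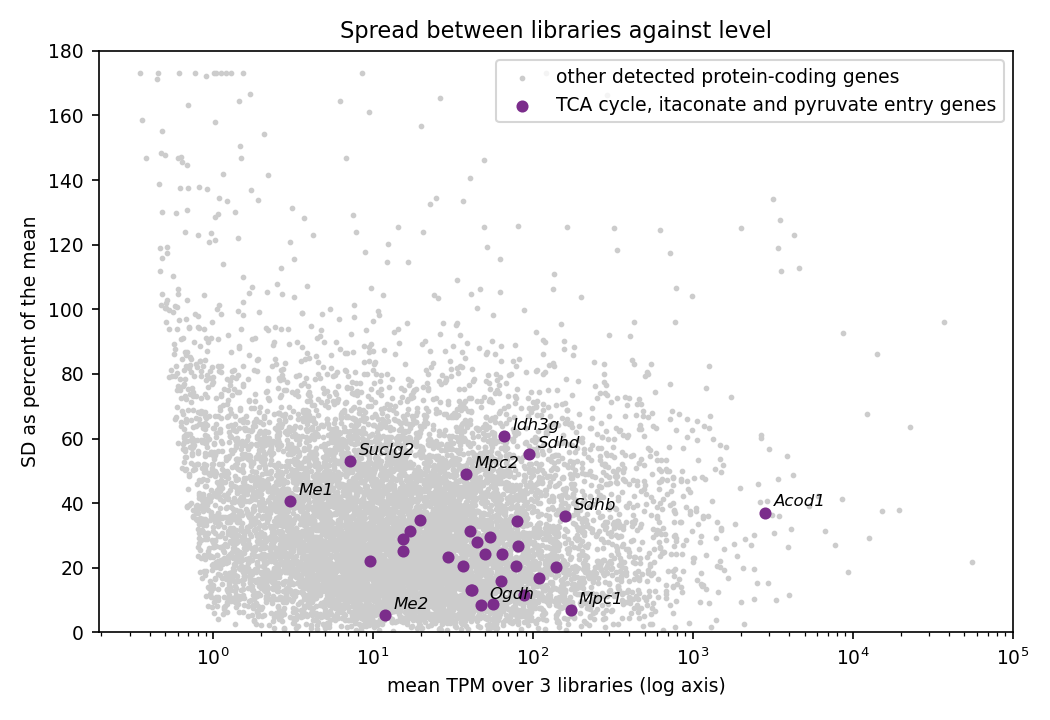
SD as a percent of the mean over the 3 libraries against mean TPM (log axis) for detected protein-coding genes (grey) and the members (purple), with Pcx left out because it stayed under 1 TPM. Idh3g, Sdhd, Suclg2 and Mpc2 spread widest among the members shown, and Me2, Mpc1 and Ogdh least.

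The median SD was 25.1% of the mean over the 33 genes and 29.1% over detected genes. Replicate 2 held the lowest value of 20 of the 33 genes, against 58.5% of detected genes, and replicate 3 the highest value of 22 (66.7%), against 45.9% of detected genes. Acod1 was lowest in replicate 3, and the only other member lowest there was Dld.

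Last, the deposited second quantification was compared with the first by limma on the differences of log2(TPM + 1) within each library, over 10203 genes. A call needed an adjusted p under 0.05 together with a mean shift of 1 or more. Of these genes 1.66% were called, and 0 of the 33. Pcx had the largest difference among the members, 0.44 higher in the second quantification, with an unadjusted p of 0.0159 and an adjusted p of 0.349 in limma. Over all genes tested the median difference, second minus first, was -0.42 in replicate 1, 0.05 in replicate 2 and -0.09 in replicate 3, and Acod1 was read at 2742, 2426 and 1918 TPM in the second quantification. All 6 separated step ratios kept both their sign and their call there, and a shift shared by a whole library cancels in a ratio.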

How the data were processed

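Polyadenylated RNA of 3 macrophage libraries, each made from 1 µg of RNA per the labels, was analysed as 1 group. Each library came with 2 quantifications on mm10 and GENCODE M21, according to notes deposited alongside. Aligner, sequencer and strandedness are not given in the sources used, so reads from overlapping antisense genes cannot be told apart. The first quantification has the column layout of RSEM and the second that of kallisto, and neither tool is named. Per the file headers, the deposited tables hold expected counts (first) or estimated counts (second), TPM in both, and the percent of each gene held by each transcript in the first. Reads shared by near-identical sequences, such as pseudogenes, were divided by a model.

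The members, the other pathway genes, the pairs, the steps and the tests were chosen with earlier results of these data known. All 33 members are named. Of the other pathway genes the 8 highest and the 4 lowest by mean TPM are named, with Aco1, Sucnr1, Clybl and the pyruvate dehydrogenase kinases, and transcripts were named where they hold at least 10% of a member on average over the libraries and are not its leading one. Mdh1-203, Suclg2-204 and transcripts that lead in 1 library alone were named after their values were seen.

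One further gene of the pathway, with the ratios that use it, is not reported here. Ratios used TPM + 0.1. The 26345 entries that name no annotated gene held 0.0875%, 0.0464% and 0.0636% of the counts and were left out. Expected counts were rounded for count tests. Transcript values of the second quantification were added up per gene, and 86 genes have no value in it. Count tests used edgeR 4.0.16 (quasi-likelihood, filterByExpr, TMM), quantifications were compared with limma 3.58.1, and DESeq2 1.42.0 gave alternative size factors. Counting-noise, variance and quantification tests were tested on simulated data. Promoters are RefSeq entries, matched by symbol for 30 of the 33 genes.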

Additional observations from a re-analysis of the deposited data

How the results depend on the processing

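No paired analysis was possible because the libraries form 1 group. Transcript lengths of 800 bases or more, and centring of quantification differences on each library's median, were chosen after seeing the data. Ratios of different genes in CPM carry the lengths of their transcripts as well as their levels. A changed sign or call in CPM therefore does not test a ratio of levels per length. Of the step ratios, library-scaled counts with no length correction (CPM) gave -1.93 for the isocitrate step over citrate synthase and 1.38 for 2-oxoglutarate dehydrogenase over it, both then separated, and turned carrier over pyruvate dehydrogenase to -0.23. The lowest subunit gave -2.35 and 1.65 for the same ratios and 2.15 for succinate dehydrogenase over the isocitrate step, now separated, and ended the call at 3.31 for succinate dehydrogenase over succinyl-CoA ligase, -2.13 for fumarase over succinate dehydrogenase and 1.85 for carrier over pyruvate dehydrogenase. The highest subunit turned the isocitrate ratios to 0.26 and -0.52 and ended the call at -0.39 for succinyl-CoA ligase over 2-oxoglutarate dehydrogenase and -0.35 for pyruvate dehydrogenase over citrate synthase. Long transcripts gave 1.29 for carrier over pyruvate dehydrogenase. In gene ratios, CPM turned Idh2 over Idh3a (-0.0088), Ogdh over Dlst (0.55), Dld over Dlst (0.0498), Sdhb over Sdha (-0.96), Got1 over Got2 (-0.23), Pdhb over Pdha1 (-0.74) and Acly over Cs (0.0614). Long transcripts turned Dld over Dlst (0.24) and Got1 over Got2 (-0.14), and leaving out replicate 2 turned Sdhd over Sdha (0.18; -0.67 to 0.18 with each library left out in turn).

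Leaving out 1 library at a time gave -1.26 to -0.60 for the isocitrate step over citrate synthase, 0.27 to 0.41 for 2-oxoglutarate dehydrogenase over the isocitrate step, 1.99 to 2.58 for succinate dehydrogenase over succinyl-CoA ligase, 1.03 to 1.61 over the isocitrate step, -3.18 to -2.50 for fumarase over succinate dehydrogenase and -1.65 to -1.31 for pyruvate dehydrogenase over citrate synthase. It gave 13 to 23 separated gene ratios, 6695 to 9696 genes beyond counting noise and 7 to 20 genes with excess variance, and no filter beyond 1 count gave 64 of the last. The second quantification put the median of the members' means at 41.1 TPM. Leaving mitochondrially encoded genes out of the TPM scales all genes of a library up by 1 factor. That factor was largest in replicate 2, and the mean of every member rose. The means of Ogdh, Dld, Mpc1 and Me2 rose by more than their SD, to 51.7, 61.0, 187 and 12.9 TPM. Genes that differ between quantifications numbered 258 with a pseudocount of 0.1, 0 without a filter on TPM (97 at an unadjusted p under 0.05 in limma), 328 without a minimum difference and 81 after centring, with 0 members in each. Pcx passed the limma threshold on p in 2 settings but fell short of the minimum difference of 1. With a pseudocount of 0.1 its difference was 0.79 (adjusted p 0.0166 in limma), and without replicate 2 it was 0.65 (adjusted p 0.0478 in limma). Beyond that scaling by library, the cause of these changes was not tested. Depth limits Pcx, whose 28 to 64 counts leave its transcripts unresolved.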
